A study of Drosophila melanogaster with 2 samples.

Results

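The 10 Drosophila melanogaster genes hpo, wts, sav, mats, yki, sd, ft, ds, ex and Mer encode core proteins of the Hippo pathway, which limits organ growth. They were taken as a list by name, out of 13968 protein-coding genes on the 7 chromosomes used. For each gene, bbx-eGFP ChIP-seq summits were collected inside the gene or up to 5 kb upstream of it. Transcription factor ChIP-seq had been done with an anti-GFP antibody on whole embryos aged 0 to 24 h of the strain bbx-GFP, which carries a bbx-eGFP fusion, as 2 biological replicates of 1 group. Such collections mix all embryonic stages and tissues, and no untagged embryos were analysed here. The antibody field of the labels reads bbx, while their description names anti-GFP. The gene bbx (bobby sox) encodes an HMG-box protein, a kind that binds DNA. With 1 group of samples and a chosen list of genes, all values are descriptions and no test was made.

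In the Hippo pathway, the kinase Hippo, bound to the scaffold Salvador, activates the kinase Warts and its cofactor Mats. Warts phosphorylates the coactivator Yorkie and keeps it out of the nucleus. Yorkie that enters the nucleus works with the DNA-binding protein Scalloped to switch on genes for growth and survival. At the cell surface, the giant cadherins Fat and Dachsous and the FERM-domain proteins Expanded and Merlin feed into the kinases. Several pathway genes, among them ex, are themselves targets of Yorkie.

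Of the 10 genes, 7 had a conservative summit by this rule, against 6316 of 13968 protein-coding genes (45.2%). The conservative set holds peaks with an irreproducible discovery rate (IDR) between the replicates of at most 0.01. The genes with a summit were wts, yki, sd, sav, hpo, ex and ft, and those without were ds, Mer and mats. At an IDR of at most 0.05 all 10 genes had a ranked summit, against 7572 of 13968 protein-coding genes (54.2%). This ranked count was 9 in the series' other ranked list, and 8 when each summit went only to the gene with the nearest TSS. A conservative summit lay within 500 bp of an annotated transcription start site (TSS) of the gene itself at 6 of the 10, all but ft among the 7, against 30.8% of protein-coding genes. Long genes offer more room, so the count was also read by length. Of the 5 members under 5 kb, 3 had a conservative summit, against 40.7% of protein-coding genes of that size, and of the 5 members over 10 kb, 4 had one, against 58.4%. With so few genes, 1 gene more or less moves these shares a long way.

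The 7 genes had 15 conservative summits in all, and how many lay near the gene's own start site depended on the distance allowed. Within 500 bp of the member's own TSS lay 6 of the 15. A further 5 lay there only for another gene, and the last 4 were near no TSS. Counted together, 8 of the 15 summits were within 500 bp of a TSS of a neighbour. With 1000 bp allowed, wts had 2 summits near its own TSS in place of 1, and yki had 3 in place of 1. The counts of the other genes did not change. When a summit was credited only to the gene with the nearest TSS, 8 of the 15 summits and 6 of the 10 genes were left, against 25.6% of protein-coding genes. The gene lost that way was sav, whose summit lay closer to its neighbour Ublcp1. Between IDRs of 0.01 and 0.05 there were 9 more ranked summits.

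**Figure D1:**
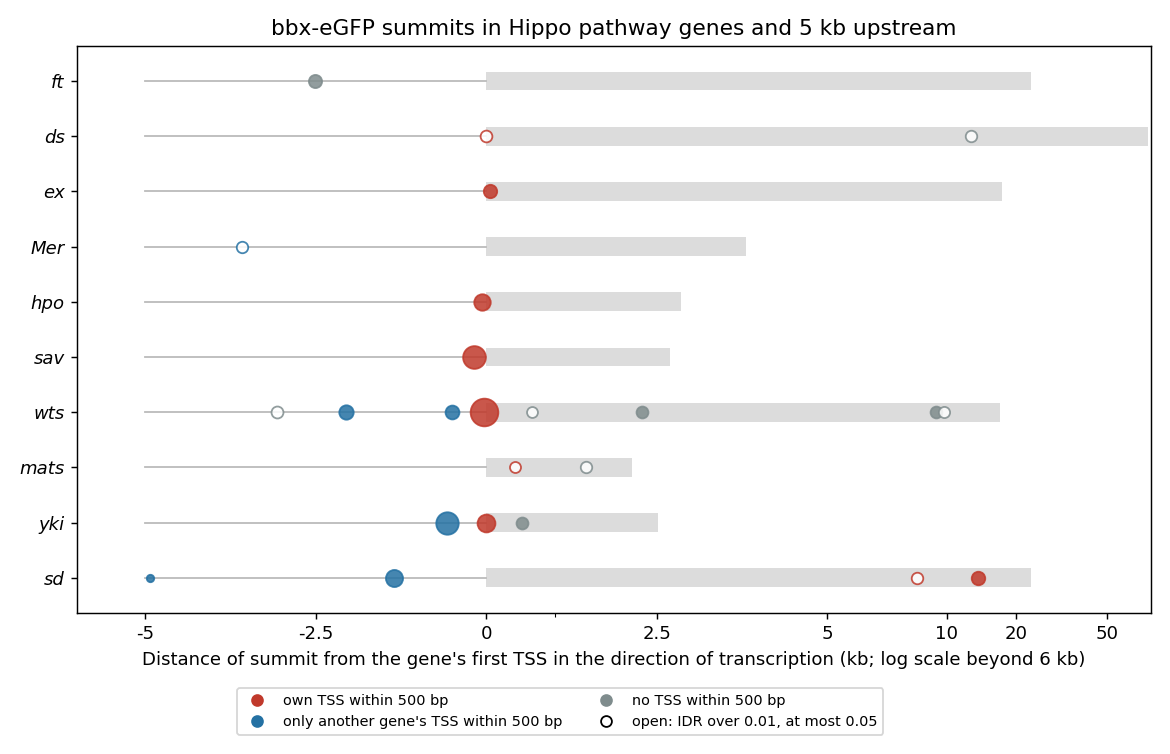
Summits at the 10 genes by distance from the gene's first TSS in the direction of transcription, in kb, linear close to the TSS and logarithmic farther into the gene. Grey bars are the genes, lines the 5 kb upstream, and the area of a point grows with pooled signal; red points lie within 500 bp of the gene's own TSS, blue ones only of another gene's TSS, grey ones of none, and open points have an IDR over 0.01. The largest point, 443, sits at the wts TSS, while the conservative points of ft and the strongest ones of yki and sd lie upstream.

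Signal at the 15 summits ran from 5.84 to 443 with a median of 89.7, in the authors' pooled units, against a median of 105 over all 4753 conservative peaks. Only 6 of the 15 were above that median. They were the strongest summits of wts, sav, hpo and sd and both upper summits of yki. The first replicate column was the higher at 12 of the 15 summits and at 74.6% of all conservative peaks. The thresholded list of replicate 1 alone (4626 peaks) held 9 summits at the members and that of replicate 2 alone (3332 peaks) held 15. Those 15 count overlapping peaks apart, at ft with signals of 36.6 and 11.1 and in a wts intron with 38.8 and 9.87. The count of summits at these genes therefore depends on which replicate is used.

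**Figure D2:**
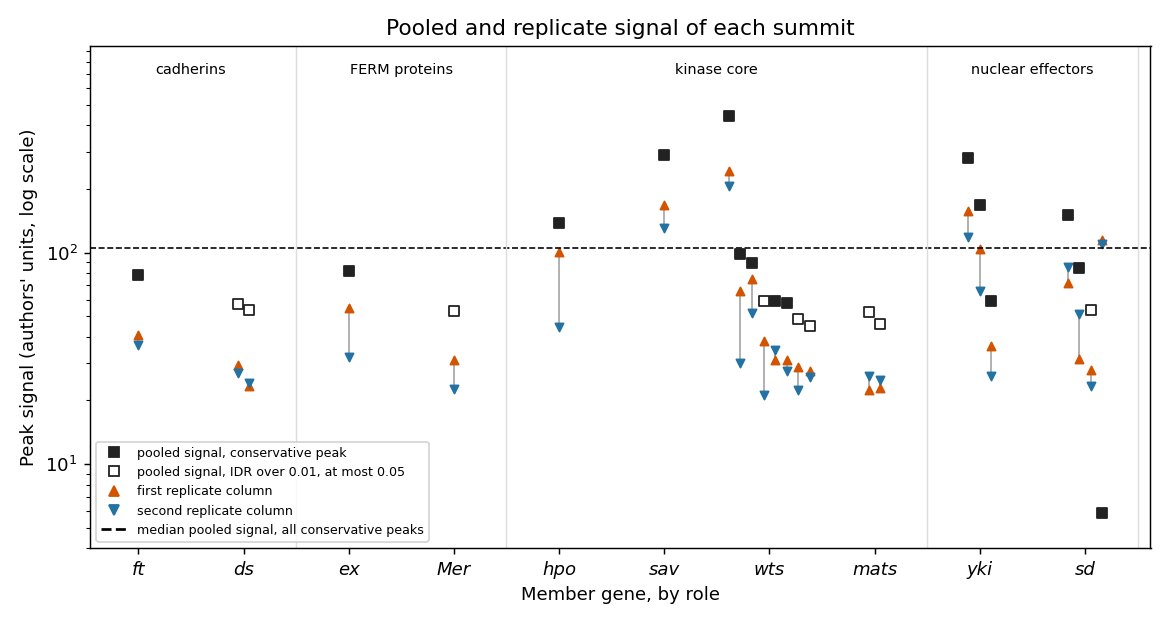
Peak signal of each summit in the authors' units on a log scale, by gene and role. Squares are the pooled signal, filled for conservative peaks and open for an IDR over 0.01 and at most 0.05, triangles are the first (up) and second (down) replicate columns, and the dashed line is the median of all conservative peaks, 105. The filled squares of wts, sav, yki, sd and hpo reach above the line, and those of ft and ex stay below it; the lowest square, at sd, is a shoulder with a pooled signal of 5.84.

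Of the 2 cadherin genes, both over 10 kb, 1 had a conservative summit, against 58.4% of protein-coding genes of that length. Fat (ft, FBgn0001075, chr2L:4198404-4221796, minus strand) encodes a giant atypical cadherin that acts as the receptor of the pathway. Its only conservative summit, at 4224317, was at -2521 bp from the TSS, where negative offsets lie upstream, in intergenic sequence with no TSS within 500 bp. The peak had a pooled signal of 78.7. The replicate columns gave 40.6 (first) and 36.6 (second), a mean of 38.6 ± 2.82 (SD, n = 2). They were close together, and the IDR was 0.00216, but only the thresholded list of replicate 2 held a peak there. The sequence is shown because it is the only conservative ft site, and it holds none of the 8 motifs searched, whose letters are given where motifs are counted over all 15 summits.
ft upstream, chr2L:4224217-4224417, minus strand (dm6), summit at base 101: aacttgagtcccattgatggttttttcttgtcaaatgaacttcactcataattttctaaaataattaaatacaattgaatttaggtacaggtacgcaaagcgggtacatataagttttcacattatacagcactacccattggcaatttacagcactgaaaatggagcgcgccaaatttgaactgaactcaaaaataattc

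At the ft promoter itself, a peak with its summit at 15 bp from the TSS and a pooled signal of 69.8 was in the series' other thresholded set of 5798 peaks but not in the conservative set. Another conservative summit, with a pooled signal of 139.5, lay just beyond the upstream limit, at -5171 bp, near a TSS of CG3702.

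Dachsous (ds, FBgn0284247, chr2L:640013-714983, minus strand) encodes the cadherin that binds Fat on neighbouring cells and, at 75 kb, is the longest of the 10 genes. It had no conservative summit, although its promoter missed the threshold narrowly. The ranked summit at 714985 was at -2 bp from the TSS with a pooled signal of 57.0 and an IDR of 0.0107, just past the limit of 0.01. Both replicates gave like values there, 29.4 in the first column and 26.8 in the second (mean 28.1 ± 1.79, SD, n = 2). Neither replicate's own thresholded list held that peak, and the ranked list of each replicate alone gave no ds summit at an IDR of at most 0.05. Just inside the limit was a summit in wts with a pooled signal of 57.8 and an IDR of 0.0083. A second ranked summit of ds, in its second intron at 702251, had a pooled signal of 53.3 and an IDR of 0.0327. The ds promoter is shown because its summit falls at the TSS; capitals mark a run of GAGAG, the core bound by GAGA factor, with copies centred at -33, -35 and -37 bp from the summit.
ds promoter, chr2L:714984-715085, minus strand (dm6), summit at base 101: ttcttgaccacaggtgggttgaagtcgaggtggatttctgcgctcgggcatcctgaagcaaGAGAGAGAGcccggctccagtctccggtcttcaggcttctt

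Of the FERM-domain genes, ex had a conservative promoter summit and Mer did not. Expanded (ex, FBgn0004583, chr2L:431227-448701, plus strand) encodes a protein of the apical membrane that acts on the kinases and binds Yorkie. The ex summit, at 431277, lay in the 5′ untranslated region at 50 bp from the single TSS, with no other gene's TSS within 500 bp. Its pooled signal was 81.7, and the replicate columns gave 54.8 (first) and 32.0 (second; mean 43.4 ± 16.2, SD, n = 2), and the IDR was 0.00182. The first value was 1.72 times the second, and a peak there passed the threshold in the list of replicate 1 but not in that of replicate 2. About 33.2% of conservative peaks had a lower pooled signal. The next conservative summit upstream was far stronger, 810, but it lay at -9733 bp, near the TSSs of CG11885 and CG13692.

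Merlin (Mer, FBgn0086384, chrX:19689697-19693500, minus strand), the fly relative of the human tumour suppressor NF2, had no summit inside the gene at an IDR of at most 0.05. Its 1 ranked summit, at 19697084, was at -3584 bp from the Mer TSS and 7 bp from a TSS of Cdc42. The pooled signal was 52.7, with 31.2 in the first column and 22.7 in the second (26.9 ± 6.03, SD, n = 2), at an IDR of 0.0209. That site is thus at the promoter of another gene, and neither replicate's own thresholded list held it.

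Within the kinase core, wts carried the strongest promoter peak of all 10 genes. Warts (wts, FBgn0011739, chr3R:30789625-30806619, minus strand) encodes the LATS-type kinase that phosphorylates Yorkie. The summit at 30806651 was at -32 bp from the single wts TSS, with a pooled signal of 443. Both replicates were high there, at 242 (first column) and 207 (second column), a mean of 225 ± 25.1 (SD, n = 2). A pooled signal lower than this was found at 95.8% of all conservative peaks, and the IDR was 1e-05, the lowest value that the file lists. A TSS of dj-1beta lay 466 bp away. The window of 100 bp to either side of the summit held 3 copies of TATCGATA, the DNA replication-related element (DRE), which reads the same on both strands. One lies upstream of the TSS, centred at -20.5 bp from the summit, and a pair lies in the 5′ untranslated region of wts. A DRE stood within 100 bp of 17.5% of all 4753 conservative summits, and of 20.3% of those within 500 bp of a TSS. The sequences show the stretch before the TSS and the pair after it, with every DRE and every CGATA (or TATCG on the other strand) in capitals in the first and the DREs alone in the second.
wts promoter, chr3R:30806620-30806751, minus strand (dm6), summit at base 101: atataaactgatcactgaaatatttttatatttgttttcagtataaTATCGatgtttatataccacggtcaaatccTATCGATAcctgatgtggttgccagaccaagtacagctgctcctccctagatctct
wts DRE pair, chr3R:30806591-30806620, minus strand (dm6): tgtcTATCGATAtcggtcTATCGATAtgtg

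Besides its promoter, wts had 4 more conservative summits, a total of 5 that 0.687% of protein-coding genes reached or passed. The count was 3 in the list of replicate 1 alone and 4 in that of replicate 2 alone, where the 4 include an overlapping pair. It was 2 when each summit went only to the gene with the nearest TSS. With the IDR limit at 0.001 the wts count was also 2. The shares of all genes under those settings were not computed. The upstream ones lay at start sites of neighbours. The summit at 30807123 was at -504 bp from the wts TSS but 6 bp from a TSS of dj-1beta, with a pooled signal of 89.7 and replicate values of 74.9 in the first column and 51.6 in the second (63.3 ± 16.5, SD, n = 2). It had a DRE centred at -1.5 bp from the summit. At 30808673, at -2054 bp, a summit 56 bp from a TSS of cindr had a pooled signal of 98.9 but differed between the replicates, with 66.1 and 30.2 (48.1 ± 25.4, SD, n = 2). The dj-1beta site is shown beside the wts sites because it carries the same octamer, in capitals.
dj-1beta site, chr3R:30807110-30807139, minus strand (dm6): atacgatagctTATCGATAgcgctgttctg

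The introns of wts held the other conservative sites, both weak. In the first intron, the summit at 30804338 lay 2281 bp downstream of the TSS and reached 58.8 in the pooled reads, with replicate values of 31.2 and 34.8 (33.0 ± 2.54, SD, n = 2). In the second intron, the summit at 30797658 lay 8961 bp downstream and reached 57.8, with replicate values of 31.2 and 27.6 (29.4 ± 2.57, SD, n = 2). Only 10.5% and 9.87% of conservative peaks were weaker than these, and neither replicate's own thresholded list held them. Both are printed because they are the only conservative sites inside a pathway gene over 500 bp from any TSS and outside exons. Capitals mark GGAATG, the core bound by Scalloped, here as CATTCC on the other strand, in the first site, and CGATA in the second.
wts intron 1, chr3R:30804238-30804438, minus strand (dm6), summit at base 101: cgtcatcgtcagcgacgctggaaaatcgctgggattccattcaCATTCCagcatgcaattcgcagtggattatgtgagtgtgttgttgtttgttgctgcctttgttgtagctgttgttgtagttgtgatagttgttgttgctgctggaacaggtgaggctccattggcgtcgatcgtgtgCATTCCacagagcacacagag
wts intron 2, chr3R:30797558-30797758, minus strand (dm6), summit at base 101: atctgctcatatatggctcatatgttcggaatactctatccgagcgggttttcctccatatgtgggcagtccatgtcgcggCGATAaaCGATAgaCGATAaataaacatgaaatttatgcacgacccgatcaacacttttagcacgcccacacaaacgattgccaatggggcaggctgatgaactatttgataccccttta

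The scaffold gene sav ranked second in signal among the 10 genes, at a promoter it shares. Salvador (sav, FBgn0053193, chr3R:23058609-23061304, minus strand) holds Hippo and Warts together. Its single summit, at 23061486, was at -182 bp from the sav TSS and 7 bp from a TSS of Ublcp1, a phosphatase gene transcribed away from it. The pooled signal, 290, was above that of 87.6% of conservative peaks. The replicate columns gave 168 (first) and 131 (second; mean 150 ± 25.9, SD, n = 2). The thresholded lists of both replicates held it. A summit this close to the start sites of 2 genes cannot be assigned to one of them from peak positions. The bases within 100 bp of the summit that lie outside annotated untranslated regions are printed because they hold a strong summit between the start sites of a pathway gene and its neighbour; capitals mark TATCG, which is CGATA on the other strand.
sav and Ublcp1 promoter, chr3R:23061386-23061492, minus strand (dm6), summit at base 7: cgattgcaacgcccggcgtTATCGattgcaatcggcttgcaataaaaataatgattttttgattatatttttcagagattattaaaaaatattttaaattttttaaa

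The nuclear factor gene sd had 3 conservative summits, only 1 of them at a start site of its own. Scalloped (sd, FBgn0003345, chrX:15804370-15827682, plus strand) is the TEAD-family protein that brings Yorkie to DNA, and its gene has 7 annotated TSSs. The summit at 15818048 was at -103 bp from the TSS farthest downstream, inside an intron of the longer transcripts. It had a pooled signal of 84.2, and the replicate columns gave 31.5 (first) and 51.0 (second; mean 41.2 ± 13.9, SD, n = 2). The thresholded list of replicate 2 held it and that of replicate 1 did not. No peak of the conservative set lay within 500 bp of the other sd start sites. A ranked summit at -307 bp from an internal TSS, at 15811787, had a pooled signal of 53.7 and an IDR of 0.0212.

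The stronger sd summit, at 15803008, was at -1362 bp from the first sd TSS and 39 bp from a TSS of PGRP-LE, which encodes a peptidoglycan receptor of the immune response. Its pooled signal was 151, with 71.9 in the first column and 85.5 in the second (78.7 ± 9.57, SD, n = 2), and a DRE was centred at -6.5 bp from it. The DRE is printed with the bases around it, in the direction of sd.
PGRP-LE site upstream of sd, chrX:15802987-15803016, plus strand (dm6): atcagtctagaTATCGATAagtattatcga
The last sd summit, at 15799437 and -4933 bp, had a pooled signal of only 5.84 but replicate values of 114.5 and 110 (112 ± 3.20, SD, n = 2). Those replicate values were also listed for an overlapping peak with a pooled signal of 236 and its summit at 15799234, near the TSSs of sordd2 and CG15602. That summit lay past the 5 kb limit, at -5136 bp, so the sd count falls to 2 when overlapping peaks are merged.

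Hippo itself had 1 conservative summit, at its promoter, with the widest gap between replicates of the 15 conservative sites. The gene hpo (FBgn0261456, chr2R:19493996-19496856, minus strand) encodes the MST-type kinase that gives the pathway its name. The summit at 19496916 was at -60 bp from the single TSS, with no other gene's TSS within 500 bp. Its pooled signal was 139, and the replicate columns gave 100.7 (first) and 44.4 (second; mean 72.5 ± 39.8, SD, n = 2). The first value was 2.27 times the second, a ratio that exceeded those of 96.3% of conservative peaks, for which the median ratio was 1.25. The site was in both replicates' own lists, at an IDR of 0.000254. A DRE was centred at -72.5 bp from the summit.

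Yorkie (yki, FBgn0034970, chr2R:24065975-24068485, minus strand), the coactivator that the kinases hold in check, had 3 conservative summits in and around a gene of 2.5 kb. The summit at 24068484 lay 1 bp downstream of the TSS, and 273 bp from a TSS of the neighbour Gpat4, with a pooled signal of 168, and the replicate columns gave 104 (first) and 65.6 (second; mean 84.8 ± 27.1, SD, n = 2). The strongest, at 24069061 and -576 bp, was 11 bp from a TSS of Gpat4, an acyltransferase gene, with a pooled signal of 281 (158 in the first column, 118 in the second; 138 ± 28.1, SD, n = 2). Both were in the lists of both replicates. The third, at 24067964, lay in a coding exon 521 bp downstream of the TSS with 59.4, and 36.03 and 25.98 in the replicate columns (31.0 ± 7.11, SD, n = 2). It was in neither replicate's own list, and its IDR was 0.00795. Around the promoter summit of yki the GGAATG core occurred 2 times, one of them centred at -7.5 bp from the summit, and such a core stood within 100 bp of 7.47% of all conservative summits.

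The fourth kinase core gene, mats, stayed below the threshold. Mats (FBgn0038965, chr3R:22421161-22423302, plus strand) is the Mob-family cofactor of Warts. Its ranked summits were at 22421576, in the 5′ untranslated region, with a pooled signal of 46.0 and an IDR of 0.0353, and at 22422629, in a coding exon, with 52.6 and 0.0362. The replicate values were 22.8 and 24.9 at the first (23.9 ± 1.46, SD, n = 2) and 22.5 and 26.1 at the second (24.3 ± 2.52). In the thresholded list of replicate 2 alone, a summit with a signal of 45.6 in that replicate lay at -92 bp from a mats TSS and near a TSS of Nop56.

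**Figure D3:**
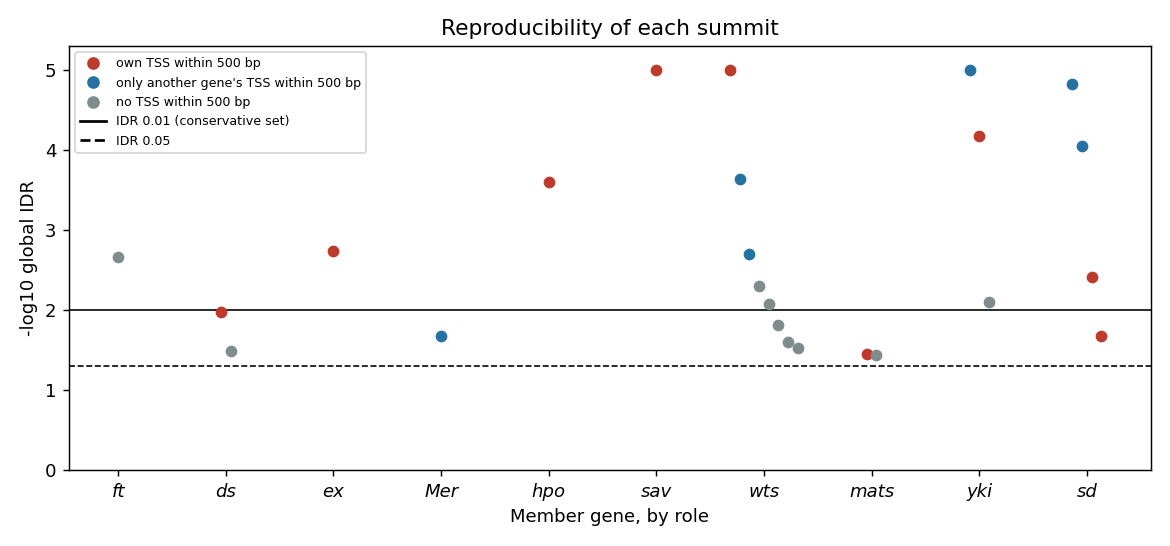
Minus log10 of the global IDR of each summit at the 10 genes, by gene in the order of roles. Colours, listed in the legend, mark summits within 500 bp of the gene's own TSS, only of another gene's TSS, or of none. The solid line marks an IDR of 0.01 and the dashed line 0.05, so that the ds promoter, at 0.0107, falls just under the solid line and the sites of mats and Mer fall between the lines.

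Set side by side by role, the kinase core and the nuclear effectors had more summits per 10 kb searched than the genes of the membrane proteins. The counts were too small to test, and some of these summits lay only at start sites of neighbours. A conservative summit was found at 3 of 4 kinase core genes and both nuclear effector genes, against 1 of 2 FERM genes and 1 of 2 cadherin genes. Over all protein-coding genes the share was 45.2%, and 58.4% for those over 10 kb, so 1 of 2 genes is near the share of all genes. At the gene's own TSS the counts were 3 of 4, 2 of 2, 1 of 2 and 0 of 2 in the same order, against 30.8%. Per 10 kb of gene and upstream sequence, the kinase core had 1.57 conservative summits and the nuclear effectors 1.68. The FERM genes had 0.32 and the cadherin genes 0.09, and all protein-coding genes together had 0.61. That last value was not matched for length, and 3934 of the 4753 conservative peaks lay within 500 bp of a TSS. The value of the nuclear effectors counts the sd shoulder, and 5 of their summits were left when overlapping peaks were merged. The cadherin genes are long, 23.4 and 75 kb, while hpo, sav, mats and yki are under 3 kb. For these short genes, most of the searched sequence is the 5 kb upstream. Each role has 2 to 4 genes, and wts alone gave 5 of the 7 summits of the kinase core. These totals moved with the replicate and with the assignment. In the list of replicate 1 alone, the kinase core had 5 summits, the nuclear effectors 3, the FERM genes 1 and the cadherin genes 0. In the list of replicate 2 alone, they had 7, 5, 1 and 2 in that order, with the overlapping wts and ft peaks counted apart. With each summit given only to the gene with the nearest TSS, the kinase core and the nuclear effectors had 3 each, and the FERM genes and the cadherin genes 1 each.

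Motifs near the 15 conservative summits were counted within 100 bp on both strands. The DRE, TATCGATA, was near 4 of the 15, at the promoters of wts, hpo, dj-1beta and PGRP-LE, against 17.5% of all conservative summits. CGATA, the core bound by the boundary protein BEAF-32, which every DRE contains, was near 9 of the 15, against 56.4%. GGAATG was near 2, GAGAG near 1 and AACAAT, a site of SOX-type HMG boxes, near 1, against 7.47%, 27.0% and 21.6% of all summits. None of the 15 held GGTCACAC (the core of Motif 1), CACGTG (an E-box) or CAGGTAG (the site of Zelda), which were near 7.26%, 4.19% and 1.07% of all summits. A match is a match of letters only.

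Most genes of the wider pathway also had a summit. Of 54 further Hippo pathway genes, 46 had a conservative summit in the gene or the 5 kb upstream, against 45.2% of protein-coding genes, and 34 had one within 500 bp of a TSS of their own, against 30.8%. Many of them are long, and the lists were chosen with earlier results of these data known. Of the 30 protein-coding ones over 10 kb, 27 had one, against 58.4% of protein-coding genes of that length, and of the 12 under 5 kb, 11 had one, against 40.7%. Between 5 and 10 kb, 8 of 11 had one, and the share of all genes of that length was not computed. The highest summit of each occupied gene had a median pooled signal of 126. Some genes were counted only through a summit near a TSS of a neighbour, as bon and Pez were. A count by nearest TSS was not made for these further genes.

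The partners of the cadherins all had a summit, 7 of 7, with 5 at a TSS of their own. Over all protein-coding genes these shares were 45.2% and 30.8%. The 7 partners are fj, dachs, app, lft, dco, Fbxl7 and Dlish. The highest signal, 512 (mean of the replicate columns 256 ± 64.7, SD, n = 2, with the same kind of mean in brackets for the genes that follow), was upstream of dachs, an atypical myosin gene, at -2354 bp and near TSSs of prg and Agpat2. Dlish, whose product binds Dachs, had 125 (66.4 ± 35.1, SD, n = 2) at 32 bp from its TSS. Next was lft, or lowfat, with 123 (59.97 ± 5.17, SD, n = 2) at -1518 bp, near TSSs of pim and Cand1.

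Among genes for polarity proteins and other upstream inputs, 11 of 13 had a summit, and 5 of 13 had one at a TSS of their own, against 45.2% and 30.8% of protein-coding genes. Summits were found at kibra, crb, Patj, ed, scrib, dlg1, aPKC, Pez, Schip1, Sik2 and Sik3, and not at sdt or l(2)gl. The kinase gene Sik3 was highest with 483 (243 ± 58.6, SD, n = 2), 185 bp from its TSS. Sik2 followed with 304 (149 ± 24.2, SD, n = 2), but at -3325 bp and near TSSs of CG4281 and an antisense RNA gene. For crb, which encodes the apical protein Crumbs, the highest value was 276 (139 ± 2.66, SD, n = 2) at -4928 bp, near TSSs of Uck and CG34290.

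Kinases that act on Hippo or Warts, their inhibitors and the STRIPAK phosphatase complex gave 9 of 12 genes, against 45.2% of protein-coding genes. A summit at a TSS of their own was found for 8, against 30.8%. The genes with a summit were Tao, hppy, msn, Rassf, Cka, mts, Mob4, par-1 and Rae1, while jub, Zyx and Strip had none. The kinase gene hppy, or happyhour, had the highest promoter signal of all 64 genes listed here, 614 (311 ± 97.0, SD, n = 2) at -59 bp. The STRIPAK gene Mob4 had 442 (223 ± 7.26, SD, n = 2) at -42 bp, near a TSS of Rab2. Rae1 had 300.1 (153 ± 40.5, SD, n = 2) at -19 bp.

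Genes for partners and inhibitors of Yorkie gave 10 of 10, 8 of them at a TSS of their own, against 45.2% and 30.8% of protein-coding genes. The 10 genes were Tgi, Wbp2, mop, hth, tsh, 14-3-3epsilon, 14-3-3zeta, vg, Mad and bon. The 14-3-3 proteins hold phosphorylated Yorkie in the cytoplasm, and 14-3-3zeta had 7 conservative summits, the highest with 502 (256 ± 41.2, SD, n = 2) at -56 bp, near a TSS of RpLP0-like. Tgi, which encodes a corepressor that competes with Yorkie for Scalloped, had 309 (162 ± 46.5, SD, n = 2) at 16 bp. The highest vg summit, 292 (142 ± 2.56, SD, n = 2), was at -3912 bp, near TSSs of AspRS and Nmda1.

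Known targets of Yorkie gave 9 of 12, with 8 at a TSS of their own, against 45.2% and 30.8% of protein-coding genes. CycE, Diap1, Myc, E2f1, wg, upd1, upd2, dally and dlp had a summit, and the microRNA gene mir-ban, upd3 and Ser had none. The glypican gene dlp had 586 (311 ± 106, SD, n = 2) at -36 bp, near a TSS of RecQ5. Diap1, which encodes an inhibitor of cell death, had 6 conservative summits with a highest value of 333 (169 ± 56.5, SD, n = 2) at -77 bp. E2f1, a cell cycle regulator, had 263 (131 ± 34.9, SD, n = 2) at -182 bp. Only the annotated start of the short microRNA was used for mir-ban, so a promoter of a longer transcript was not covered.

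**Figure D4:**
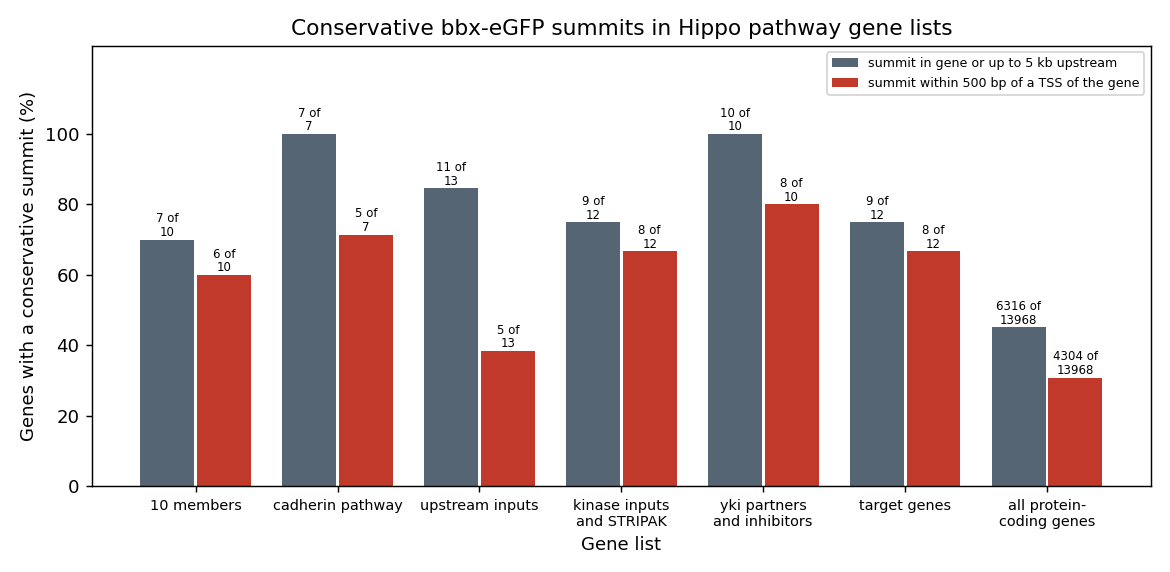
Percent of genes with a conservative bbx-eGFP summit in the gene or up to 5 kb upstream (grey) and within 500 bp of a TSS of the gene (red), for the 10 members, 5 lists of further pathway genes and all protein-coding genes. The numbers above the bars give the genes with a summit of the genes listed, 7 of 10 and 6 of 10 for the members, against 6316 and 4304 of 13968 for all protein-coding genes; the lists hold genes of different length.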

How the data were processed

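Peak lists on the dm6 assembly were deposited for bbx-eGFP ChIP-seq of 2 biological replicates. The authors derived them from the alignments and a control alignment, per the deposited text files; an aligner, a peak caller and read totals were not given in the sources used here, so the depth is unknown. The deposited peak signal is the authors' enrichment value for pooled reads or 1 replicate, of unstated scale. The deposited score is a rescaled IDR, and the deposited -log10 value is that of the global IDR. The 2 replicate columns were not named in the file. Of the first column's peaks, 99.8% matched a peak of replicate 1 in position and signal and 0% one of replicate 2; of the second column's, 99.4% matched replicate 2 and 0% replicate 1.

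Positions are 1-based. Genes and TSSs came from Ensembl release 115, and bases from the RefSeq copy of the same genome release 6, in which all 10 members had the same span. Summits were assigned to a gene's span and the 5000 bp before it, on 7 chromosomes, with transposable element genes left out. No test was made. The assignment was tested on simulated data. The members, lists and motifs were chosen with earlier results of these data known. The length classes, the names dachs and Dlish for listed genes and the stretches printed around DREs were chosen after the data were seen. All members were named, and the 3 highest genes of each further list were given values. Python 3.11.15, NumPy 2.4.6, pandas 2.3.3 and Matplotlib 3.10.9 were used. Alternatives were other peak sets, IDR limits, reaches, ways of assignment and each replicate alone.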

Additional observations from a re-analysis of the deposited data

How the results depend on the processing

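The number of genes with a conservative summit was 7 and stayed between 5 and 8 under all alternatives but 1. With no upstream sequence it was 4, and the ranked count at an IDR of at most 0.05 was then 6 in place of 10. The 15 conservative summits became 6 with no upstream sequence, 8 at an IDR of at most 0.001, and 8 when each summit went only to the gene with the nearest TSS. They rose to 22 with a reach of 10000 bp and to 17 in the series' other thresholded set. With 1 replicate left out, the lists of the other replicate alone gave 6 to 8 genes and 9 to 15 summits, with overlapping peaks counted apart. They gave 8 genes at an IDR of at most 0.05, and 5 to 6 genes with a summit within 500 bp of their own TSS. That promoter count, 6, ran from 4 to 7 under the other alternatives. The strongest summit of ex, ft and sd changed with a reach of 10000 bp, to 810, 139.5 and 236. With no upstream sequence, the strongest summit of wts, yki and sd was 58.8, 168 and 84.2, in place of 443, 281 and 151. No paired analysis was possible because all samples form 1 group. Depth is unknown, so sites missing from a list were not detected at that threshold rather than shown to be absent.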

Other observations

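Some sites fall outside the counts of the pathway genes. Beyond the 5 kb limit, Mer had its nearest conservative summit at -8261 bp, with a pooled signal of 108 near a TSS of Tcs4, and hpo had one at -6174 bp, with 100.6 near a TSS of CG11007. The series' other thresholded set added a wts summit in an intron at 30795036, with a pooled signal of 63.2, which the list of replicate 2 also held with a signal of 38.8. It also added the sd summit at -307 bp from an internal TSS, 53.7, and the ft promoter summit given above, and no site at ds, Mer or mats. In the list of replicate 2 alone, ex had a summit at -1002 bp with a signal of 42.8, and none at its TSS.

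Among the 15 conservative sites, only the sd shoulder overlapped a stronger peak whose replicate values it carried. Over the whole conservative set, merging overlapping peaks left 4470 of 4753, and 121 of the 4753 had a pooled signal under 10.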
